A study of Mus musculus with 24 samples.

Results

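RNA of mouse dorsal root ganglia under camptothecin was compared between 36 h and 24 h after a crush of the sciatic nerve. The 7 libraries were chosen by their labels alone, 4 at 24 h and 3 at 36 h, out of 19 libraries analysed. Dorsal root ganglia hold the cell bodies of sensory neurons with their satellite glia. The mice were wild type, of the strain labelled C57B/L6, and 12 weeks old. Camptothecin, a plant alkaloid that traps DNA topoisomerase I on DNA, was injected into the peritoneum at 2 mg/kg, 30 minutes after the crush. Ganglia of vehicle-injected mice with the same crush gave 3 libraries at 24 h and 3 at 36 h, and each arm also had 3 libraries at 18 h. Every mouse was injured and no uninjured group was used, so each change is a step between 2 times after injury. The labels do not say which ganglia were taken, whether ganglia were pooled, or that libraries came from separate animals, and p-values therefore reflect only how these libraries scatter, part of which may be technical. If the crush was done at 1 time of day, which the labels do not say, the groups compared are also 12 h apart in clock time.

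Sensory neurons whose peripheral axon is cut or crushed change their transcription over hours to days. They switch on transcription factors such as Atf3 and Jun, then a set of growth-associated proteins and injury-induced neuropeptides, while many channels and transmitter genes of the mature neuron are turned down. Topoisomerase I relieves the supercoils that form ahead of RNA polymerase, and camptothecin is known to slow transcription most in very long genes.

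The 24 h libraries held 8.44, 15.0, 12.4 and 9.87 M counts (M for mega) (mean 11.4 ± 2.91, SD, n = 4), and the 36 h libraries 10.4, 9.79 and 9.32 M (9.85 ± 0.560, n = 3). The totals did not differ beyond that spread (two-sided exact permutation test, p = 0.457, with 0.0286 the smallest p the design allows). Pan-neuronal markers summed to between 27137 and 38558 counts per M counts (CPM) in these libraries, and all 16 passed the count filter. On the first principal component of the 7 libraries (31.4% of the variance), the 24 h library 4 lay at 71.9 and the 36 h library 2 at 32.9, while the others lay between -38.9 and -6.04. Results are therefore given with and without these libraries. GC-rich transcripts tended to be higher in these libraries than over all 19, with rank correlations of 0.0576 to 0.310 at 24 h and of 0.131 to 0.263 at 36 h between GC content and the deviation of a transcript's level. Transcripts are not independent, so these values only describe the libraries.

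Of 18606 transcripts tested, 30 (0.161%) changed from 24 h to 36 h at an adjusted p under 0.05 in edgeR's quasi-likelihood test. The level rose for 19 (0.102%) and fell for 11 (0.0591%), and in all 30 the 36 h libraries lay outside the range of the 24 h libraries, as they did in 8.86% of all tested transcripts. The same values chose the 30, so that count is a description. Changes of at least 2-fold were found for 9 rises and 4 falls. The median log2 fold change was 0.95 among the rises and -0.88 among the falls, against -0.0032 over all tested transcripts. The transcripts are described below by what their proteins do, an order chosen after their values were seen. A fold change in whole-ganglion RNA cannot tell apart a change in the number of cells of a type and a change in RNA per cell.

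Promoter sequence is shown for 4 of the changed genes, as RefSeq gives the 250 bases before the start of transcription in the build GRCm38.p6. Sprr1a is the largest rise, Gal the change with the smallest p, Areg the largest fall with more than a few counts in each library, and Npy1r the receptor of the peptide encoded by the rising Npy. Each window was searched on both strands for the AP-1 motif TGANTCA, bound by dimers of the Jun and Atf3 kind, for the cAMP response element TGACGTCA, bound by CREB, and for the clock and Myc family E-box CACGTG. No pair of these overlaps in the windows shown. Capitals mark the matches. Sprr1a is on the minus strand at chr3:92485882-92486131, Gal on the minus strand at chr19:3414545-3414794, Areg on the plus strand at chr5:91139349-91139598 and Npy1r on the plus strand at chr8:66697172-66697421.
Sprr1a: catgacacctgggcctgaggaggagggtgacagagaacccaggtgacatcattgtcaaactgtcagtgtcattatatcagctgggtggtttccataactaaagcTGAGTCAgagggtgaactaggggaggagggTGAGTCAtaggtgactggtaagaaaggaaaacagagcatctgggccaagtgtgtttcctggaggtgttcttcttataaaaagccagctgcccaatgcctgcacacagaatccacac
Gal: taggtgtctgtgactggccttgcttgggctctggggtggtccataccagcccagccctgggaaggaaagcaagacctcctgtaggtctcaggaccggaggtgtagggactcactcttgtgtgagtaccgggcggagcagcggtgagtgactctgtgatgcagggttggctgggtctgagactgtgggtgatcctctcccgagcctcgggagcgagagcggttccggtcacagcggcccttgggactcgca
Areg: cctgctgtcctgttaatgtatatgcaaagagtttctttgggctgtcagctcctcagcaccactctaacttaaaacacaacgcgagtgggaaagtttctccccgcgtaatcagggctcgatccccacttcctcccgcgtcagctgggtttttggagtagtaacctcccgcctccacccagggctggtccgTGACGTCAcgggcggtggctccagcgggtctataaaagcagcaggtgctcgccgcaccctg
Npy1r: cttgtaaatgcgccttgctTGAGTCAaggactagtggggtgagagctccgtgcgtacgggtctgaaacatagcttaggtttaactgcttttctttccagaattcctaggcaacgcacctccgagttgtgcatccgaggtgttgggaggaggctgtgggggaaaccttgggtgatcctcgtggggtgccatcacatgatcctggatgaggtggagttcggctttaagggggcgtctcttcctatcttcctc
The Sprr1a window held the AP-1 letters at 146 and 116 bases before the start, and the Npy1r window held them at 231 bases before it. In Areg the cAMP response element began 61 bases before the start, and Gal matched none of the motifs in this window. Of 15 changed genes with a window, 3 held the AP-1 motif (Sprr1a, Npy1r and Entpd3), 1 held the cAMP response element (Areg) and 1 held the E-box (Entpd3). Among all 32851 windows of this length, 6.75% held the AP-1 motif, 1.55% the cAMP response element and 6.02% the E-box. A match describes letters only and is not evidence of binding.

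The changed transcripts included 2 neuropeptide genes and 2 receptor genes, of which 3 rose and 1 fell. Galanin, a neuropeptide that axotomised sensory neurons are known to make, was read from Gal (ENSMUST00000025842, between 3409932 and 3414447 on the minus strand of chromosome 19). Its level was 68.1, 54.7, 50.5 and 48.3 CPM in the 24 h libraries and 210, 228 and 201 CPM in the 36 h libraries. All 36 h libraries were high and far from the 24 h range, and Gal rose 3.85-fold (log2 fold change 1.95 ± 0.22, SE, edgeR adjusted p = 0.000371). Neuropeptide Y (Npy, plus strand of chromosome 6, 49822710 to 49829507) was scarce, with 8.07, 5.88, 6.03 and 7.17 CPM at 24 h and 19.9, 17.2 and 19.0 CPM at 36 h. The groups did not overlap and Npy rose 2.77-fold (1.47 ± 0.28, adjusted p = 0.0282). Gpr151, an orphan G protein-coupled receptor known to appear in injured sensory neurons, held 55.0, 60.3, 45.9 and 46.0 CPM at 24 h and 96.4, 128 and 95.6 CPM at 36 h (1.04 ± 0.17, adjusted p = 0.00831). The Y1 receptor gene Npy1r (plus strand of chromosome 8, 66697422 to 66706792) went the other way. It held 201, 208, 183 and 188 CPM at 24 h and 136, 132 and 120 CPM at 36 h, with every 36 h library low (-0.59 ± 0.12, adjusted p = 0.0329). Gal kept its call without any single library. Gpr151 lost it without the 36 h library 2, Npy in 6 of 7 such fits (it passed without the 24 h library 1) and Npy1r in 6 of 7 (it passed without the 24 h library 4).

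Growth, cytoskeleton and adhesion genes gave the largest rise. Sprr1a, a small proline-rich protein of the skin barrier that injured neurons also make and that promotes neurite outgrowth (ENSMUST00000054599, minus strand of chromosome 3, 92483952 to 92485895), held 148, 158, 98.6 and 168 CPM at 24 h. At 36 h it held 789, 892 and 641 CPM. The lowest 36 h library was well above the highest 24 h library, a 5.41-fold rise (log2 fold change 2.44 ± 0.32, adjusted p = 0.00103). Gap43, a membrane protein of growth cones, moved much less, from 296, 336, 270 and 276 CPM to 458, 470 and 436 CPM (0.63 ± 0.12, adjusted p = 0.0329). Dcx, the microtubule-binding doublecortin of migrating young neurons, held 5.65, 5.75, 8.4 and 7.65 CPM at 24 h and 21.7, 16.5 and 15.2 CPM at 36 h (1.37 ± 0.23, adjusted p = 0.0102). Dcx was thus a rise from a low level, with no overlap. The cell adhesion molecule Chl1, of the L1 family, held 589, 582, 544 and 611 CPM at 24 h and 914, 1097 and 895 CPM at 36 h (0.74 ± 0.11, adjusted p = 0.00362). Neto1, an auxiliary subunit of kainate-type glutamate receptors, held 90.4, 75.8, 69.2 and 85.8 CPM at 24 h and 161, 171 and 134 CPM at 36 h (0.95 ± 0.13, adjusted p = 0.00103). Formin 1 (Fmn1), which nucleates actin filaments, fell from 486, 553, 513 and 523 CPM to 374, 381 and 328 CPM (-0.52 ± 0.11, adjusted p = 0.0429). Sprr1a and Neto1 kept their calls without any single library. Chl1 lost its call without the 36 h library 2, and Dcx without the 36 h library 1. Gap43 passed in 1 of the 7 fits, without the 24 h library 2, and Fmn1 in 1, without the 24 h library 4.

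**Figure D1:**
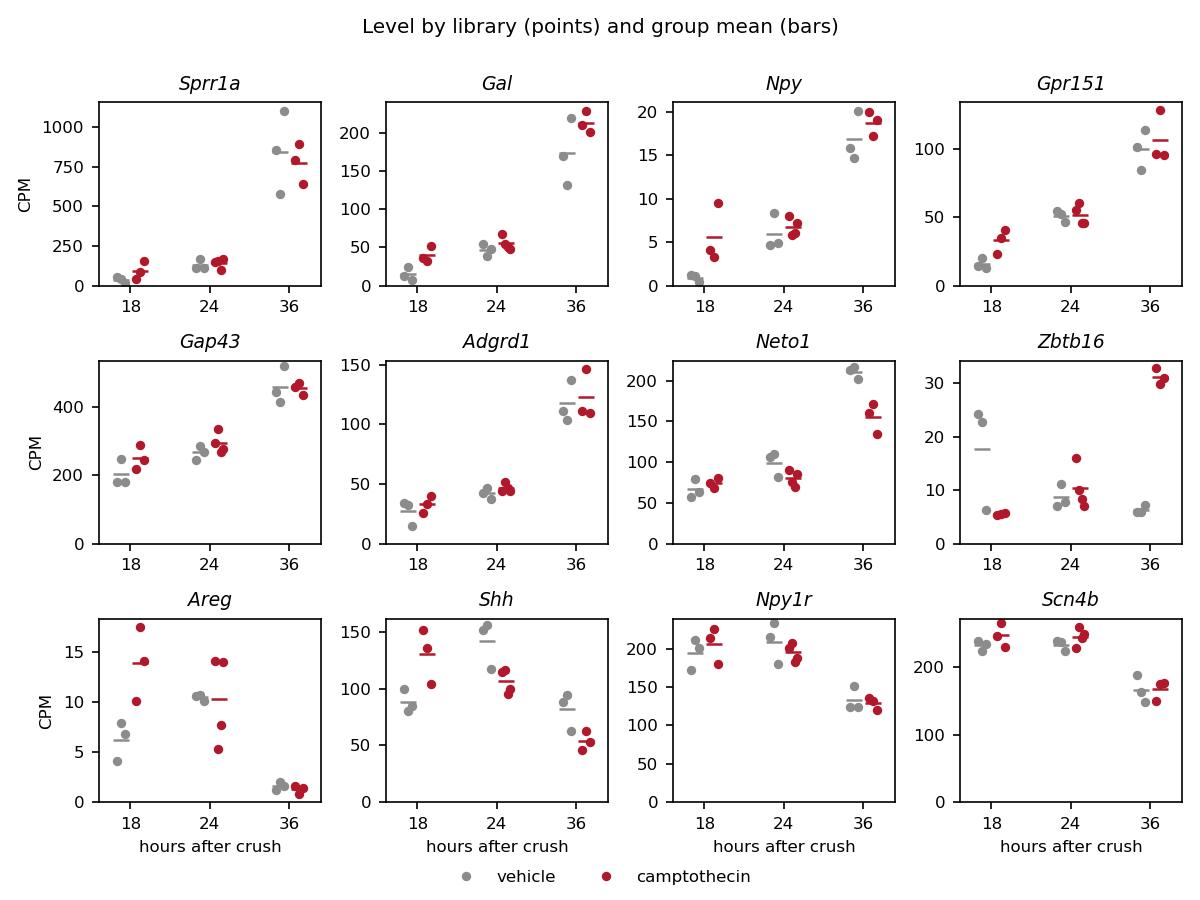
CPM in every library at 18, 24 and 36 h for 12 of the changed genes, with vehicle in grey and camptothecin in red (points, libraries; bars, group means; all axes start at 0). Red points at 36 h lie apart from those at 24 h in each panel, and for Sprr1a they run from 641 to 892 CPM against 98.6 to 168 CPM.

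Genes of secreted ligands and of an antagonist changed in both directions. Amphiregulin (Areg, ENSMUST00000031325, plus strand of chromosome 5, 91139599 to 91148432), a ligand of the epidermal growth factor receptor, held 14.2, 5.29, 7.77 and 14.0 CPM at 24 h and 1.59, 0.788 and 1.45 CPM at 36 h. It varied among the 24 h libraries, yet the lowest of them lay above every 36 h library, and Areg fell 7.93-fold (log2 fold change -2.99 ± 0.37, adjusted p = 0.000741). In raw counts this was 447 over the 4 libraries at 24 h and 39 over the 3 at 36 h. Sonic hedgehog (Shh, minus strand of chromosome 5, 28456815 to 28467256), a morphogen, held 115, 116, 95.6 and 99.9 CPM at 24 h and 45.8, 62.5 and 53.1 CPM at 36 h. It fell by 0.99 ± 0.16 on the log2 scale (adjusted p = 0.00831). The Wnt ligand gene Wnt2b rose from 39.5, 55.9, 56.7 and 47.6 CPM to 86.1, 113 and 86.8 CPM (0.93 ± 0.16, adjusted p = 0.0127). Follistatin (Fst), a secreted antagonist that binds activins, rose from 50.5, 45.1, 44.3 and 41.5 CPM to 73.3, 78.2 and 67.9 CPM (0.69 ± 0.14, adjusted p = 0.0434). Areg kept its call in all 7 fits without 1 library. Shh lost it without the 36 h library 1 or 3, Wnt2b without the 24 h library 1 or the 36 h library 2, and Fst in all 7 fits.

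Among further changed genes, of membrane proteins and others, Adgrd1, an adhesion G protein-coupled receptor (plus strand of chromosome 5, 129096750 to 129204599), held 44.4, 51.5, 47.0 and 44.6 CPM at 24 h and 111, 147 and 110 CPM at 36 h. Its 24 h libraries were close together and its 36 h libraries all more than double them (1.38 ± 0.19, adjusted p = 0.00103). Scn4b, a beta subunit of voltage-gated sodium channels, held 228, 259, 243 and 250 CPM at 24 h and 149, 175 and 177 CPM at 36 h (-0.55 ± 0.10, adjusted p = 0.0140). Entpd3, an enzyme on the cell surface that breaks down extracellular nucleotides, fell from 110, 89.7, 96.8 and 88.7 CPM to 57.2, 61.8 and 63.1 CPM (-0.67 ± 0.11, adjusted p = 0.0103). The heparan sulfate proteoglycan Sdc1 rose by 0.88 ± 0.18 (23.9 to 41.2 CPM at 24 h, 52.8 to 66.2 CPM at 36 h, adjusted p = 0.0492). The sulfotransferase Chst2 rose by 0.65 ± 0.12 (429 to 549 CPM, then 705 to 767 CPM, adjusted p = 0.0140). Ppef1, a calcium-binding protein phosphatase of sensory neurons, rose by 0.87 ± 0.13 (108 to 155 CPM, then 210 to 235 CPM, adjusted p = 0.00362). Aim1 rose by 1.35 ± 0.22 (14.4 to 24.9 CPM, then 43.1 to 59.1 CPM), and Fndc4, a secreted protein with a fibronectin type III domain, fell by 0.88 ± 0.18 on the log2 scale (25.6 to 36.0 CPM, then 14.0 to 21.7 CPM). Adgrd1 and Ppef1 kept their calls without any single library. Entpd3 lost its call without any one of the 36 h libraries, and Aim1 without the 36 h library 1 or 2. Scn4b passed without the 24 h library 1 or 4, Chst2 without the 24 h library 1 or 2, Fndc4 without the 24 h library 4 or the 36 h library 2, and Sdc1 without the 24 h library 3, and each lost its call in the other fits.

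Low counts stand behind 3 more of the falls, besides Areg with its 39 counts at 36 h. Kprp, a keratinocyte protein gene, held 2.54, 3.85, 3.01 and 4.65 CPM at 24 h and 0, 0.0985 and 0.517 CPM at 36 h. This was 167 counts against 6, a ratio of 0.0553 per count sequenced (95% exact interval 0.0200 to 0.123, counting error only), and its log2 fold change was -4.04 ± 0.73 (adjusted p = 0.0158). Kprp lost its call without the 36 h library 1 or 2. Abra, an actin-binding protein known from striated muscle, held 6.34, 2.94, 5.07 and 4.07 CPM at 24 h and 0.187, 0.690 and 1.03 CPM at 36 h (-2.83 ± 0.54, adjusted p = 0.0275). It passed without the 24 h library 2 or 4 and lost its call in the other 5 fits. Of 8 skeletal muscle markers 4 were tested and 0 changed. Their sum was 1.26 to 42.2 CPM at 24 h and 8.88 to 9.93 CPM at 36 h, and its part in the Abra result was not tested. Gm14257, annotated as antisense, held 4.15, 3.98, 6.11 and 4.36 CPM at 24 h and 0.562, 1.67 and 1.45 CPM at 36 h (-1.92 ± 0.38, adjusted p = 0.0329). Whether counting used strand is not given in the sources used here, so its reads cannot be told apart from those of an overlapping gene, and it kept its call in 1 of 7 fits, without the 24 h library 4.

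The rises of the processed pseudogenes Gm12854 and Gm7665 cannot be assigned to those loci. Over the 297 bases of each, 294 (Gm12854) and 293 (Gm7665) were identical to the transcript of S100a11, a calcium-binding S100 protein. Gm12854 held 87.9 to 110 CPM at 24 h and 161 to 185 CPM at 36 h (0.78 ± 0.14, adjusted p = 0.0140), and Gm7665 held 30.2 to 37.6 CPM and then 55.1 to 66.6 CPM (0.79 ± 0.13, adjusted p = 0.00831). S100a11 itself held 64.2 to 84.6 CPM and then 99.9 to 118 CPM (0.60 ± 0.14) and did not pass (adjusted p = 0.102). The sum of the 3 features was 208 ± 17.7 CPM at 24 h (SD, n = 4) and 343 ± 25.7 CPM at 36 h (n = 3), and the groups did not overlap. Gm12854 lost its call without the 24 h library 3 or 4 or any 36 h library, and Gm7665 without the 36 h library 1. A transcript with no symbol, ENSMUST00000182761, was abundant and fell by 0.54 ± 0.09 on the log2 scale (457 to 485 CPM, then 308 to 332 CPM, adjusted p = 0.0114). It lost its call without the 24 h library 3 or any 36 h library.

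Zbtb16, a zinc finger transcription factor known to be induced by glucocorticoids, was 1 of 2 changed transcripts whose step had the opposite sign in vehicle. With camptothecin it held 16.0, 9.99, 8.33 and 7.07 CPM at 24 h and 32.8, 29.7 and 30.9 CPM at 36 h, a 3.02-fold rise (log2 fold change 1.60 ± 0.30, adjusted p = 0.0265). With vehicle it held 7.15, 11.2 and 7.75 CPM at 24 h and 5.86, 5.89 and 7.29 CPM at 36 h (-0.45 ± 0.38, adjusted p = 0.811). All 3 camptothecin libraries at 36 h were thus above every other library at these 2 times. The difference of the steps was 2.05 ± 0.48 with an unadjusted p of 0.000359, which did not pass over all transcripts (adjusted p = 0.9997). At 18 h the order was the other way, with 5.29, 5.51 and 5.80 CPM under camptothecin and 24.23, 22.8 and 6.33 CPM under vehicle. The vehicle libraries at 18 h thus lay above the camptothecin ones, and 2 of them were high, near the camptothecin level at 36 h. The call was kept without the 24 h library 1 and lost without any other camptothecin library. Of 14 tested genes of the glucocorticoid response list 1 rose (Zbtb16) and 0 fell. The list's median was 0.23 against -0.0032 over all transcripts, with 10 members positive and 4 negative. The lowest was Per1 (-0.86), at only 0.281 to 2.03 CPM in the camptothecin libraries at these 2 times. Fkbp5, a chaperone partner of the glucocorticoid receptor, held 0.317 to 2.42 CPM at 24 h and 1.03 to 6.70 CPM at 36 h (1.19 ± 0.87, adjusted p = 0.915). The only Fkbp5 transcript tested is annotated as a retained intron and not as protein-coding, so these values are not those of the coding RNA. The metallothionein Mt2 held 38.2 to 83.9 CPM and then 70.7 to 122 CPM (0.82 ± 0.29, adjusted p = 0.508), with overlapping groups. Pdk4, which restrains pyruvate dehydrogenase, had a log2 fold change of 0.70 ± 0.25 (adjusted p = 0.508).

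The regeneration-associated list, chosen like the others with earlier results of these data known, held most of the list members that changed. Of its 36 tested genes 5 rose and 0 fell, which were Gal, Sprr1a, Gpr151, Npy and Gap43, against 0.161% of all transcripts called. Its median log2 fold change was 0.13 and 24 of its members were positive. The transcription factors known to drive the program were not among the rises. Atf3 held 602, 633, 544 and 542 CPM at 24 h and 484, 488 and 445 CPM at 36 h (-0.30 ± 0.12, adjusted p = 0.613). Jun held 433, 417, 409 and 427 CPM and then 336, 376 and 320 CPM (-0.29 ± 0.09, adjusted p = 0.404). In both genes every 36 h library lay below every 24 h library, and groups lay apart in 8.86% of all tested transcripts. Neither passed in edgeR. Jun passed with DESeq2 (adjusted p = 0.0491), which called 127 transcripts. Sox11 held 82.4 to 106 CPM and then 93.7 to 113 CPM (0.15 ± 0.13). Anxa1, an annexin that limits inflammation, held 9.78 to 25.7 CPM and then 37.8 to 40.7 CPM (1.32 ± 0.30, adjusted p = 0.0991), and the neuropeptide neurotensin (Nts) 47.8 to 72.2 CPM and then 85.3 to 108 CPM (0.74 ± 0.25, adjusted p = 0.444). Gadd45a, a stress and DNA damage gene, had a log2 fold change of -0.43 ± 0.21 (adjusted p = 0.774).

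Over the other 30 lists no member passed, and in all 32 lists 6 of 400 distinct tested genes changed. Over all transcripts 0.161% were called, so a list of this size without a call is near that share. Of 13 tested core clock genes, 0 passed and the median was -0.36, with 10 negative members. Per2 held at most 23.6 CPM at 24 h and 12.6, 13.5 and 13.0 CPM at 36 h (-0.66 ± 0.26, adjusted p = 0.580). Arntl, the Bmal1 activator, went from 2.38 to 3.98 CPM to 3.93 to 4.83 CPM (0.43 ± 0.40, adjusted p = 0.943), and Nr1d1, the Rev-erb alpha repressor, differed by 0.24 ± 0.25. Per1 was near the floor, with 0.576 to 2.03 CPM at 24 h and 0.281 to 1.18 CPM at 36 h (-0.86 ± 0.86). Per3 (-0.45 ± 0.79) and Dbp (-0.36 ± 0.54) were at a few CPM. The Per3 transcript used is annotated as a retained intron and not as protein-coding. The p53 list (0 of 21), the DNA repair list (0 of 21) and the topoisomerase list (0 of 5) had no member that passed either. Not passing does not show that their levels stayed the same. Top1, which encodes the target of camptothecin, held 126 to 152 CPM and then 136 to 137 CPM (-0.06 ± 0.14), and Cdkn1a, the p21 inhibitor of the cell cycle, 93.0 to 111 CPM and then 131 to 143 CPM (0.40 ± 0.18, adjusted p = 0.729). Of 24 very long genes 0 passed and the median was -0.14.

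Stress lists had medians below 0 with no member past the threshold. Of 17 endoplasmic reticulum stress genes, Ddit3, the CHOP transcription factor, came closest and was the transcript with the smallest p among falls that did not pass. It held 19.8, 17.9, 23.4 and 16.6 CPM at 24 h and 10.2 to 11.4 CPM at 36 h (-0.83 ± 0.17, adjusted p = 0.0585). Chac1, a glutathione-degrading enzyme, reached 22.7 CPM at 24 h and at most 12.9 CPM at 36 h (-0.81 ± 0.21, adjusted p = 0.229). The list's median was -0.11, and 12 of its members were negative. Of 23 heat shock genes 0 passed, with Dnajb1 at -0.52 ± 0.13 (adjusted p = 0.185), and of 20 immediate early genes 0 passed, with Homer1 at -0.72 ± 0.21 (adjusted p = 0.349).

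The listed genes of the mature sensory neuron were mostly lower without passing. Scn4b and Npy1r, which these lists do not hold, fell and passed (above). Of 25 tested sensory ion channel genes 0 passed, 19 were negative and the median was -0.12. Trpa1, the irritant receptor channel, held 100, 120, 111 and 94.2 CPM at 24 h and 69.6, 73.0 and 74.5 CPM at 36 h (-0.56 ± 0.13, adjusted p = 0.102). The groups did not overlap, as in 8.86% of all tested transcripts. Asic3, an acid-sensing channel, and Scn11a, the NaV1.9 sodium channel, differed by -0.49 ± 0.16 and -0.37 ± 0.13 (adjusted p = 0.404 and 0.491). Of 18 subtype markers 0 passed and the median was -0.21, with the peptide genes Tac1 (-0.67 ± 0.21, adjusted p = 0.370) and Calcb (-0.47 ± 0.18) and the itch receptor Mrgprd (-0.42 ± 0.19) among the lower ones. Of 16 pan-neuronal markers 0 passed, 12 were negative and 4 positive, and the median was -0.14. The neurofilament genes Nefl (-0.38 ± 0.09, adjusted p = 0.123), Nefh (-0.33 ± 0.10) and Nefm (-0.33 ± 0.12) had the smallest p in it. The RNA-binding protein gene Elavl4, at a few CPM (0.66 ± 0.30, adjusted p = 0.726), and the tubulin gene Tubb3 (0.28 ± 0.11, adjusted p = 0.567) were on the positive side. The summed level of the pan-neuronal list was 31788 to 38558 CPM at 24 h and 27137 to 30638 CPM at 36 h, without overlap. The 3 neurofilaments made up most of it, and the other 13 genes summed to 9225 to 10929 CPM and then 9000.0 to 9654 CPM, with overlap.

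Markers of other cell types had positive and negative medians with no member past the threshold, and their part in the results above was not tested. Of 15 macrophage markers 11 were tested, 0 passed and 10 were positive (median 0.60). Their summed level was 160 to 344 CPM at 24 h and 283 to 460 CPM at 36 h, so the groups overlapped. Mrc1, the mannose receptor, held 66.5 to 92.8 CPM and then 122 to 157 CPM (0.72 ± 0.19, adjusted p = 0.229), and C1qb differed by 0.65 ± 0.25. Of 11 fibroblast matrix markers 10 were tested, 0 passed and all 10 were positive (median 0.52). Their sum was 960 to 1513 CPM and then 1469 to 1926 CPM. Dcn, the proteoglycan decorin, held 79.8, 73.2, 59.9 and 50.4 CPM at 24 h and 121, 88.5 and 89.7 CPM at 36 h (0.60 ± 0.16, adjusted p = 0.237), and Lum and Col3a1 differed by 0.56 ± 0.18 and 0.58 ± 0.20. Satellite glia (0 of 11, median 0.24) and Schwann cell and myelin markers (0 of 14, median 0.09) had no member past the threshold. Erythroid markers were lower without passing (0 of 7, median -0.78), and their sum was 6.68 to 37.2 CPM at 24 h and 4.73 to 14.5 CPM at 36 h. The median was 0.34 over 8 neutrophil markers, -0.09 over 5 lymphocyte markers, -0.11 over 5 endothelial markers, -0.14 over 8 mural cell markers, 0.30 over 3 adipocyte markers and -0.28 over 3 markers of spinal cord glia, each with 0 changed.

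**Figure D2:**
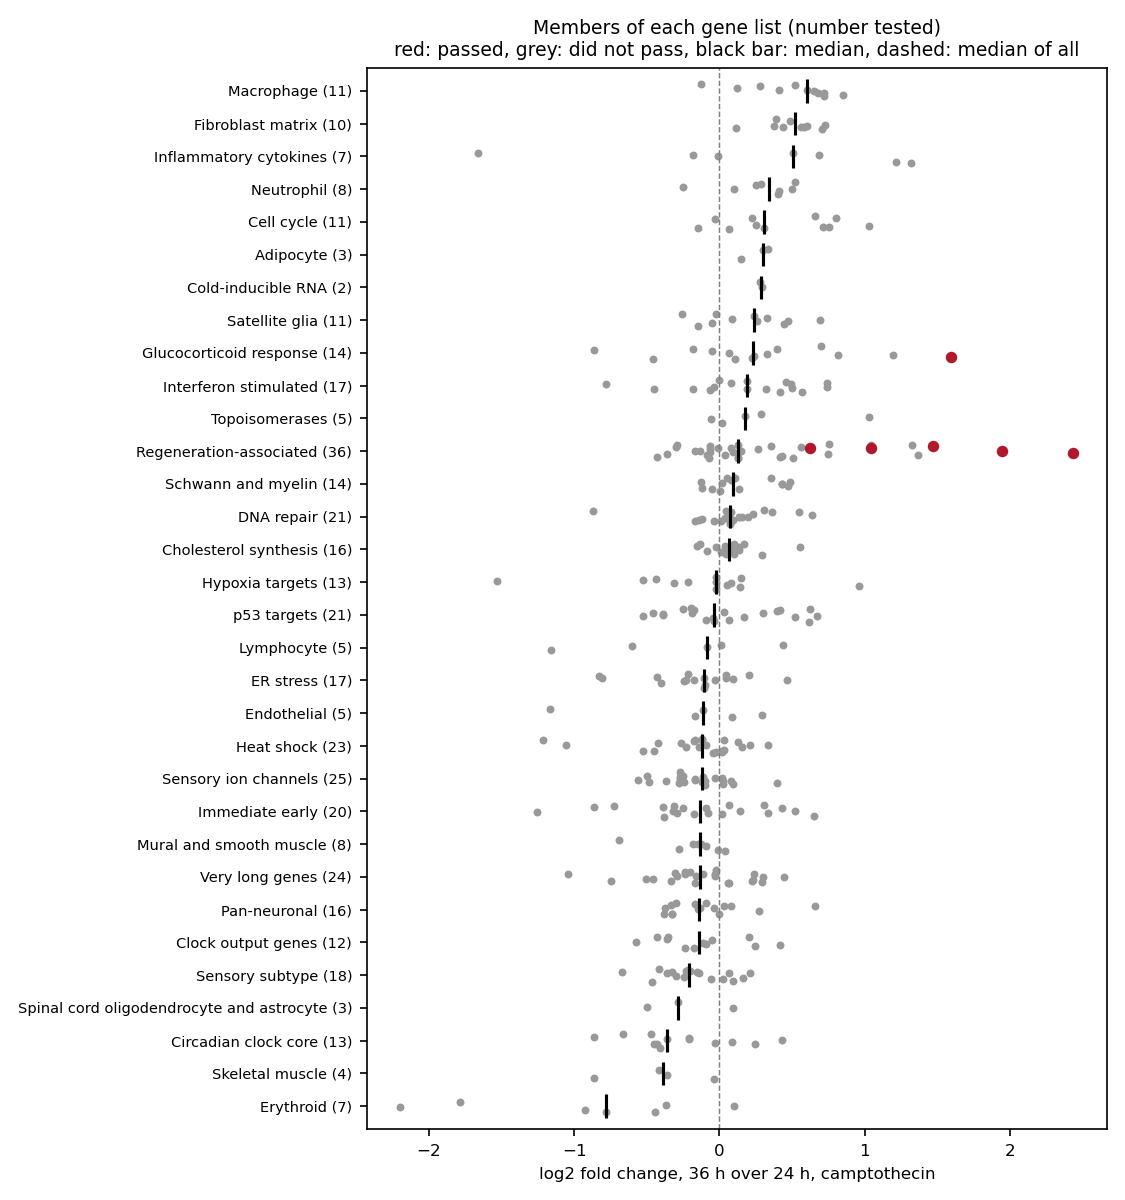
Log2 fold change from 24 h to 36 h under camptothecin (x axis) for the tested members of each of 32 gene lists (y axis, number tested in brackets), with each list's median as a black bar and the median of all transcripts dashed. Red marks members that passed the adjusted test, which are 5 in the regeneration-associated list and Zbtb16 in the glucocorticoid list.

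The remaining lists had no member past the threshold either. Their medians were -0.14 for 12 clock output genes, 0.28 for 2 cold-inducible genes, 0.07 for 16 cholesterol synthesis genes and -0.02 for 13 hypoxia targets. They were 0.19 for 17 interferon-stimulated genes, 0.51 for 7 inflammatory cytokine genes and 0.31 for 11 cell cycle genes.

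The same step was read in vehicle-injected mice, whose libraries are not shared with the camptothecin step. These libraries were shallower, with 6.08, 8.32 and 6.14 M counts at 24 h and 4.47, 3.71 and 5.75 M at 36 h. Each vehicle total lay below every camptothecin total of the step, and the vehicle totals at 36 h lay below those at 24 h. The numbers of calls in both arms were thus not read at equal depth, and the part of depth in them was not tested. There 27 transcripts (0.145% of those tested) changed, 21 up (0.113%) and 6 down (0.0322%). Of the 30 camptothecin changes 28 had the same sign in vehicle, against 56.8% of all tested transcripts. The transcripts that passed in both arms numbered 15, which is 50% of the camptothecin calls and 55.6% of the vehicle calls, and they were 12 rises and 3 falls. Sprr1a rose from 108, 166 and 114 CPM to 854, 575 and 1100.2 CPM with vehicle (2.70 ± 0.36), and Gal from 54.0, 38.9 and 47.4 CPM to 170, 132 and 219 CPM (1.90 ± 0.25). Areg fell there from 10.6, 10.8 and 10.1 CPM to 1.22, 2.06 and 1.62 CPM (-2.69 ± 0.42). The steps of these 3 genes differed between the arms by less than their standard errors. The vehicle median of the regeneration-associated list was 0.27. Of its 36 tested members 6 passed as higher in vehicle, against 0.113% of all transcripts. The fibroblast matrix and erythroid medians were -0.08 and 1.41 in vehicle. Other lists went either way. The macrophage (0.57) and satellite glia (0.24) medians had the same sign in both arms. Those of the glucocorticoid response (-0.33) and of Schwann cell and myelin markers (-0.24) had the opposite sign in vehicle.

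The step itself was then compared between the arms in a drug-by-time test. No transcript of 18606 passed in edgeR (0.0%), with a smallest adjusted p of 0.9997 and 622 transcripts (3.34%) at an unadjusted p under 0.05. DESeq2 also called 0 (smallest adjusted p = 0.222), as did limma on the deposited log2 values. Of the 30 changed transcripts, 3 had an unadjusted p under 0.05 in this test. These were Zbtb16, Gm14257 (-1.99 ± 0.53, unadjusted p = 0.00127) and Chl1 (-0.37 ± 0.16, unadjusted p = 0.0327). Chl1 rose in both arms, by 0.74 ± 0.11 with camptothecin and by 1.11 ± 0.12 with vehicle. Gm14257 held 3.31, 5.62 and 3.48 CPM at 24 h and 4.64, 4.12 and 4.38 CPM at 36 h with vehicle (0.07 ± 0.38). The standard error of the difference was 0.135 to 1.09 over the 30 transcripts (median 0.250 on the log2 scale). Even the differences of Zbtb16 (2.05 ± 0.48) and Gm14257 (-1.99 ± 0.53), well above their standard errors, did not pass. Differences between the arms well above that size can therefore have been missed with these libraries.

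**Figure D3:**
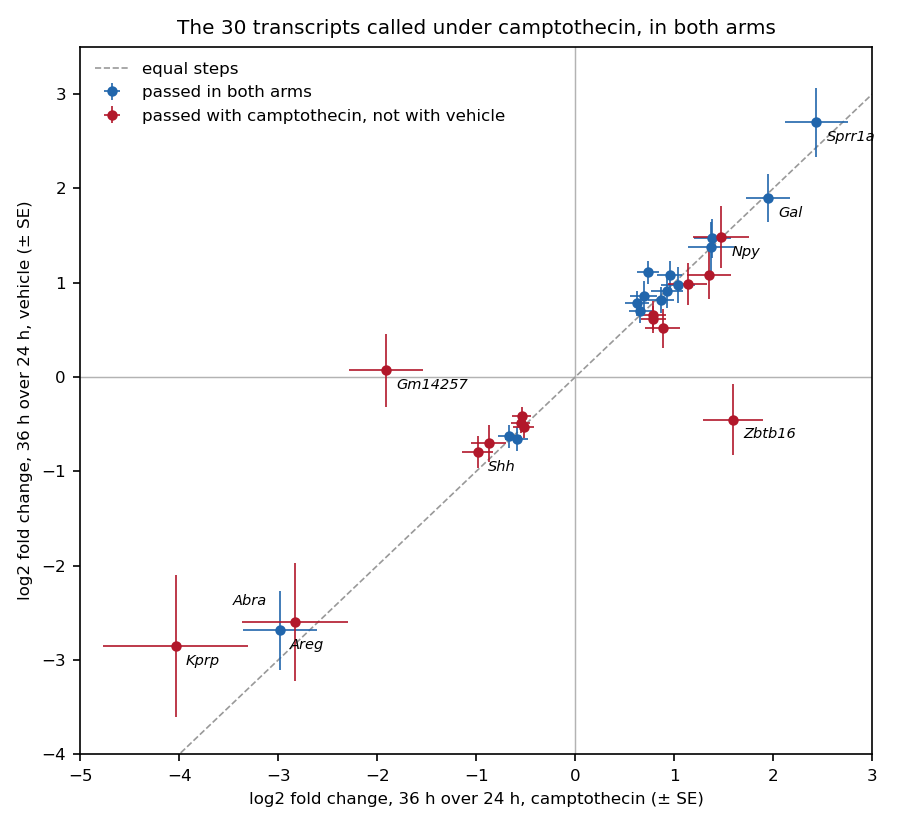
Log2 fold change from 24 h to 36 h with camptothecin (x axis) against the same step with vehicle (y axis) for the 30 changed transcripts, with standard errors as bars and equal steps as the dashed line. Of these, 28 lie in the quadrants of equal sign, and Zbtb16 (1.60 and -0.45) and Gm14257 (-1.92 and 0.07) lie outside them.

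The levels at 18 h in the same arm are given as a description, since 18 h was not tested against the later times here and the 30 transcripts were chosen on their 24 h and 36 h values. The 18 h and 24 h libraries overlapped for 23 of the 30, against 93.7% of all tested transcripts. The 36 h libraries lay outside the 18 h range for 29, against 18.37% of all. From 18 h to 24 h the group mean moved in the same direction as from 24 h to 36 h in 22 of the 30 (16 of 19 rises and 6 of 11 falls), against 45.1% of all. Sprr1a held 44.0, 86.7 and 154 CPM at 18 h, a spread that reached into its 24 h range. Gpr151 held 23.1, 35.0 and 40.9 CPM at 18 h, all below its 24 h libraries. Shh (152, 136 and 104 CPM at 18 h) and Areg (10.1, 17.5 and 14.2 CPM) overlapped their 24 h levels.

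The number of changes depended on single libraries, on the correction for GC content and on the tool. Without 1 library the count was 23, 25, 16 and 29 for the 24 h libraries 1 to 4 and 10, 10 and 14 for the 36 h libraries 1 to 3. Without the 24 h library 4 the calls were 13 rises and 16 falls, and with DESeq2 they were 66 rises and 61 falls. The 6 transcripts that passed in each of these 7 fits were Gal, Areg, Sprr1a, Adgrd1, Neto1 and Ppef1. Without both libraries that stood apart, an alternative chosen after seeing the data, 6 transcripts passed in a comparison of 3 libraries with 2. They were Gal (1.81), Sprr1a (2.38), Neto1 (0.89), Areg (-2.57), Shh (-1.16) and Fndc4 (-1.20, all log2 fold changes), while Adgrd1 and Ppef1 did not pass (adjusted p = 0.0641 and 0.0827). With a correction for GC content 14 passed. Ppef1 (adjusted p = 0.138), Chl1 (0.218), Gap43 (0.301) and Npy1r (0.307) were among the 15 that did not, as were Entpd3, Scn4b, Fmn1, Chst2, Fst, Sdc1, Wnt2b, Dcx, Gm12854 and Gm7665. The transcript with no symbol could not be fitted there, since it has no annotated sequence. With the library total as a covariate 25 passed, and Zbtb16, Npy, Npy1r, Fst, Fmn1, Fndc4 and Gm14257 did not. In a fit of the 2 groups compared alone 43 passed, and Abra, Gm14257, Fndc4 and Sdc1 did not. Sdc1 also lost its call with RLE scaling and with no filter on low counts, as did Abra and Gm14257 with limma on the deposited log2 values.

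**Figure D4:**
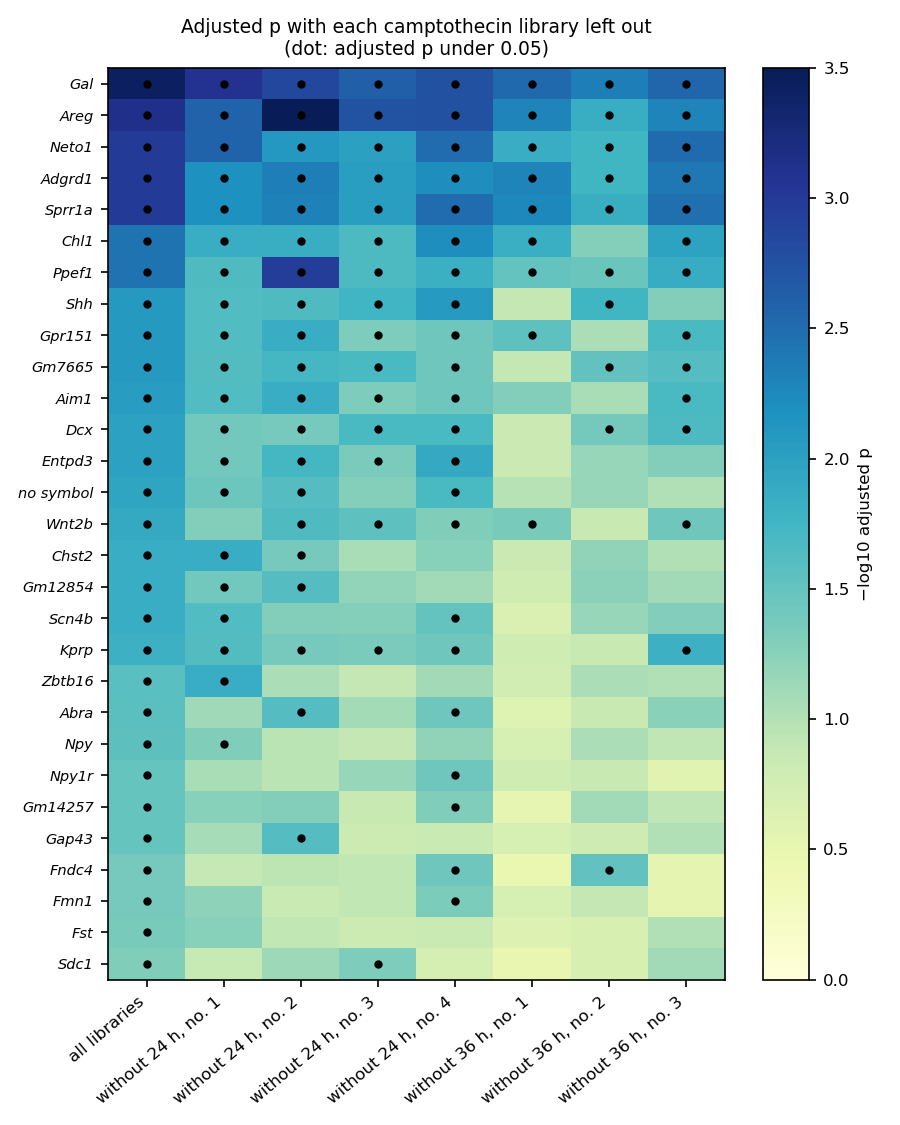
Adjusted p on a −log10 colour scale for 29 of the changed transcripts (rows, in order of p) with all libraries and with each of the 7 camptothecin libraries left out (columns), where a dot marks an adjusted p under 0.05. Dots fill the whole row for Gal, Areg, Neto1, Adgrd1, Sprr1a and Ppef1, and the columns without a 36 h library hold the fewest.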

How the data were processed

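RNA of whole dorsal root ganglia was measured by paired-end sequencing of amplified cDNA. Per the labels' protocols, total RNA was purified and cDNA made with a Nugen Ovation kit. The same text speaks of immunoprecipitated or flow-through RNA, which was not resolved. CASAVA 1.8.2, limma and the build mm10 are named, without roles, in the submitters' processing notes. Which aligner, counter and strand setting were used is not given in the sources used here. Raw counts of 19571 Ensembl transcripts were deposited (named so per the file headers, and all whole numbers). The authors also deposited variance-stabilised values on a log2 scale, with their own p-values for camptothecin against vehicle, which were not used as results. Letters A and B of the columns were taken as vehicle and camptothecin, because the deposited log2 fold changes equalled the B minus A means to within 8.7e-14. Of 24 samples, 5 were not analysed here. Members, gene lists and tests were chosen with earlier results of these data known.

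The test was the quasi-likelihood F-test of edgeR 4.0.16 (R 4.3.3) on counts, with 6 group means over 19 libraries, with TMM scaling. filterByExpr (min.count 10, min.total.count 15) kept 18606 transcripts and removed 965. The fit had 13 residual degrees of freedom, and p-values were adjusted by Benjamini-Hochberg over all tested transcripts (two-sided, threshold 0.05). The SE is the log2 fold change divided by the square root of F. CPM used TMM-scaled totals of tested transcripts. Each list gene is its transcript with the most counts. The 291 transcripts without a symbol held 0.501% to 0.568% of counts and stayed in the fit. On simulated counts for the camptothecin step, with 18606 transcripts, 24% of 100 transcripts changed by log2 1 and 68% of 100 changed by log2 2 were recovered, and 6 unchanged ones were called.

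Genes were named by a rule. It took the 10 largest rises and falls among calls without overlap and with a mean of at least 2 CPM, filled with the smallest p where fewer passed, and left out unnamed loci. From each list came up to 4 members by smallest p, followed by the 6 smallest p of the drug-by-time test and a few genes always named. Other calls were named after their values were seen, and some results are not reported here, though the counts include them. Alternatives were RLE scaling, no filter, DESeq2 1.42.0, limma 3.58.1 on the deposited log2 values, only the groups compared, the replicate number as a block, library total as a covariate, a GC correction (loess, span 0.3), counts summed per symbol, and leaving out libraries. Coordinates and GC content come from a GENCODE annotation of GRCm38, which held 97.8% of the transcripts.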

Additional observations from a re-analysis of the deposited data

Results flagged for a closer look

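Within the 4 camptothecin libraries at 24 h, 77 groups of values were examined. In 2 of them 1 library stood far from the others. The gap to the nearest library, divided by the group's range, was there above Dixon's 95% critical value. Chance gives about 1 such group in 20, and 2 of 77 is below that share. Gadd45a held 649 CPM in library 1 and 446, 458 and 467 CPM in libraries 2 to 4, a gap of 0.896 of the range. Kif11, a kinesin of the mitotic spindle, held 14.6 CPM in library 1 and 9.21, 9.04 and 9.68 CPM in the others, a gap of 0.885 of the range. Neither gene passed in the step from 24 h to 36 h (-0.43 ± 0.21 and 0.12 ± 0.21 on the log2 scale).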

How the results depend on the processing

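The main test called 30 transcripts under camptothecin and 27 under vehicle. The camptothecin count was 127 with DESeq2 (61 lower, or 48.0% of calls against 36.7%), 14 with the GC correction, 25 with library total as a covariate, 43 with only the groups compared, and 10 to 29 without 1 library. Without both libraries that stood apart (added after seeing the data) it was 6. The vehicle count was 140 with DESeq2, 41 with limma, 10 with only the groups compared, 9 with library total as a covariate, 8 with the GC correction and 7 to 77 without 1 library. Same-numbered camptothecin libraries correlated by 0.181, -0.0794 and 0.0642, so the numbers were not taken as pairs. With the replicate number as a block, 54 camptothecin and 73 vehicle transcripts passed. Distinct list genes called were 6 in the main test, 20 with DESeq2, 12 with the replicate block, 2 to 6 without 1 library, and 2 without both libraries. The drug-by-time test called 0 under each alternative run. No call among the 30 changed its direction. Of the 46 transcripts followed that did not pass, 2 turned in sign under an alternative. Sox11 ran from -0.0057 (without both libraries) to 0.24 (without the 24 h library 2). Per3 ran from -0.81 (without the 24 h library 3) to 0.56 (without the 24 h library 4), and was 0.66 with the block and 0.40 without both. For each of these the cause was not tested. With 3 and 4 libraries the simulated recovery of 2-fold changes was 24%, so many changes of that size can have been missed.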

Other observations

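Summing the counts of all transcripts of a symbol gave 44 genes past the threshold, the 29 symbols of the main calls and 15 others (7 higher, 8 lower). Among the 15, the scavenger receptor Msr1 (1.21 ± 0.26) and Cd180 (1.37 ± 0.30), both known from myeloid cells, the cholecystokinin receptor Cckar (0.65 ± 0.13) and the Wnt antagonist Sfrp1 (0.57 ± 0.12) were higher at 36 h. Lower were the kinase Sik1 (-0.89 ± 0.18), Ddit3 (-0.82 ± 0.17), the phosphatase Dusp16 (-0.68 ± 0.14), the carbonic anhydrase Car2 (-0.59 ± 0.12), Trpa1 (-0.56 ± 0.12) and Nefl (-0.39 ± 0.09, edgeR adjusted p = 0.0499). As single transcripts the named genes had adjusted p-values from 0.0567 (Cckar) to 0.123 (Nefl).

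The rising Sprr1a and the falling Kprp lie on chromosome 3, 337 kb apart, and both encode proteins of the skin barrier. In the drug-by-time test of edgeR, the smallest p-values outside the 30 changed transcripts included Tnfsf13os (2.03 ± 0.51, 0.000646), the gap junction gene Gjd2 (-2.37 ± 0.62, 0.00105) and the matrix gene Thbs4 (1.28 ± 0.34, 0.00121), each with its unadjusted p. None of them passed over all transcripts (edgeR adjusted p = 0.9997). Under camptothecin Gjd2 held at least 1.90 CPM in each 24 h library and at most 0.930 CPM in each 36 h library.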
